A study of Mus musculus with 13 samples.

Results

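Cloned mouse embryos that were left free to replicate their DNA were compared with metaphase II (MII) oocytes, the egg in which a transplanted nucleus starts out. The members are all genes on 4 arrays, chosen by the sample names alone: 3 arrays of embryos made by somatic cell nuclear transfer (SCNT) and cultured without aphidicolin (SCNT Aph-), and 1 array of MII oocytes. These are 4 of the 13 arrays of a study that asked whether a cumulus cell nucleus can be reprogrammed when aphidicolin, an inhibitor of DNA polymerases, keeps it from replicating. RNA from pools was hybridized to Illumina mouse BeadChips, and each probe gave a mean bead intensity.

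The SCNT Aph- embryos were made by replacing the spindle of C3H/HeN oocytes with the nucleus of a C57Bl/6J cumulus cell, and the labels call the cells of all 3 pools blastocysts. The 3 labels differ otherwise, with no time on the first, 96 h on the second and the word blastocyst on the third. By the study's text, embryos without aphidicolin were collected at 96 h after activation whatever stage they had reached. The pools may therefore hold embryos that stopped before the blastocyst stage, in a share not given in the sources used here. The oocyte label names B6C3F1 mice, where the text names C3H/HeN, so strain and state cannot be told apart in this comparison. Fertilized embryos cultured without aphidicolin (fertilized Aph-, 3 arrays with the same 3 kinds of label, called in vitro fertilized in the labels and sperm-injected in the text) and cumulus cells of B6C3F1 mice (2 arrays) are given beside the clones. None of these groups was given aphidicolin. By the text, the fertilized embryos came from C3H/HeN oocytes and C57Bl/6J sperm, whereas the clones hold a C57Bl/6J nucleus. Strain of the genome and kind of embryo thus cannot be told apart between clones and fertilized embryos. Cumulus donors are female, while the sex of the fertilized embryos is not given in the sources used here. No source ties the 3 pools to separate rounds of culture, so the p-values rest on the spread between these pools, which may be technical.

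An oocyte at metaphase II is not transcribing, and lives on mRNAs stored during its growth, which code for the egg coat, the meiotic arrest and the storage of mRNA itself. After activation these maternal mRNAs are degraded while the embryonic genome is switched on, in the mouse mainly at the 2-cell stage. At the blastocyst stage the embryo holds an outer epithelium, the trophectoderm, that pumps fluid into a cavity, and an inner cell mass that gives rise to the epiblast and the primitive endoderm. A cloned embryo has to make the same passage with the genome of a differentiated cell.

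Mean intensity was 184 to 313 on the SCNT Aph- arrays and 289 on the oocyte array, and 7673 to 8691 probes against 6713 were detected above the negative controls at p under 0.01. Values are log2 intensities after background correction and quantile normalization, on which the lowest detected probe lay at 4.93 to 5.26 on the SCNT Aph- arrays and at 5.67 on the oocyte array. A gene counted as detected where any of its probes was. Since quantile normalization makes all arrays alike in distribution, rises and falls are shifts against the rest of the mRNA and not amounts per embryo. In such bulk samples fewer cells of a type and less RNA per cell cannot be told apart. Of 16593 genes with a named probe, 9787 had a probe detected on at least 1 of the 13 arrays and were tested. The 3 SCNT Aph- arrays correlated at 0.971 to 0.974 with each other and at 0.476 to 0.498 with the oocyte array. Between pairs of SCNT Aph- arrays 5.24% to 5.98% of the genes were at least 2-fold apart. With 1 oocyte array, the spread of that group was taken from the other groups in a limma fit of all 13 arrays, and an error particular to the oocyte array enters every value below.

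Of the markers that define the states, Zp1 and Zp3 of the egg coat, Gdf9, Bmp15, Mos and Nlrp5 were detected on the oocyte array, whereas the probe of Zp2 was not detected on it (4.59) or on any SCNT Aph- array. The trophectoderm markers Cdx2, Krt8, Krt18 and Gata3 were detected on all 3 SCNT Aph- arrays, as was Nanog of the inner cell mass. The probe of Pou5f1, which codes for OCT4, was detected on all 4 arrays at 5.92 to 6.36, and that of Sox2, a partner of OCT4, was detected on none of the 4. Actb, the cytoplasmic actin often used as a reference, was not constant, at 11.70, 12.84 and 12.22 in the clones against 9.66 (6.02-fold, adjusted p = 0.0024), and another of its probes differed at least 2-fold the other way.

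Somewhat more mRNAs rose than fell between the oocyte and the clone, an order that turned with another scaling. A gene was called when limma gave an adjusted p under 0.05 and a difference of at least 2-fold. By this rule 2272 genes (23.2% of those tested) were higher and 2058 (21%) were lower in SCNT Aph- embryos. The changes were large: 1628 of the higher and 1492 of the lower genes differed at least 4-fold, and 339 and 376 at least 16-fold. All 3 SCNT Aph- arrays lay on the same side of the oocyte array for every called gene, and 2140 and 1979 genes were at least 2-fold away on each of the 3 arrays. Over all genes tested, the 3 arrays lay above the oocyte array for 44.5% and below it for 39.9%. The median difference over all genes tested was 0.07 on the log2 scale. Scaling each array to its 75th percentile in place of quantile normalization moved this median to -0.29, and then 2072 genes were higher and 2472 lower. Without the genes whose cumulus level exceeded the oocyte level at least 2-fold, a choice made after the values were seen, 754 higher and 1986 lower genes remained. That filter uses the same oocyte array and removes genes low on it, so both counts follow in part from the choice.

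**Figure D1:**
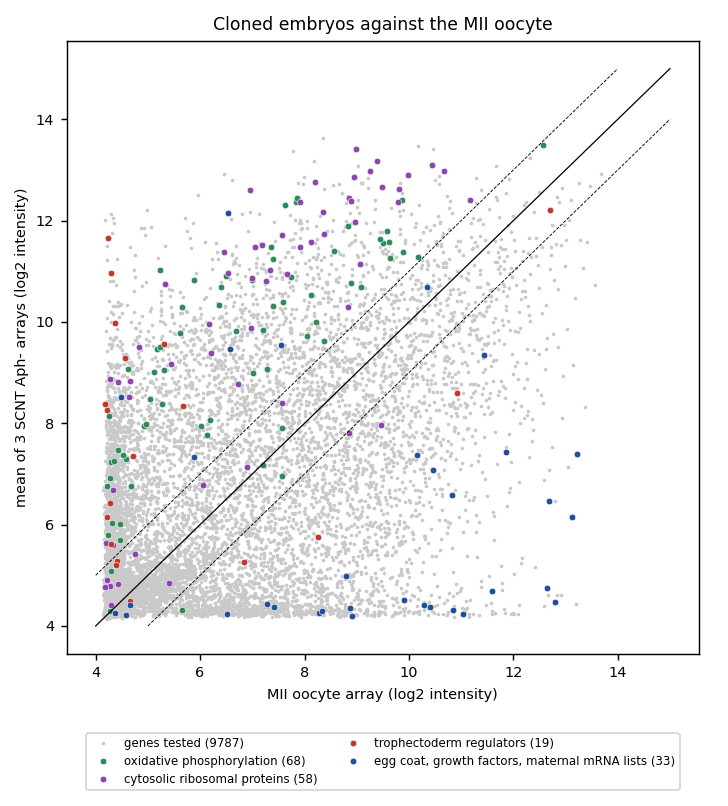
Log2 intensity of each of the 9787 genes on the MII oocyte array (x axis) and as the mean of the 3 SCNT Aph- arrays (y axis), with the solid line at equal levels and the dashed lines at 2-fold. Ribosomal protein and respiratory chain genes lie mostly above the upper dashed line, and the oocyte lists mostly below the lower dashed line, many of them at the floor near 4 of the clones.

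Many of the differences were between a detected and an undetected mRNA. For 1735 genes (17.7% of those tested) the probe was detected on all 3 SCNT Aph- arrays and not on the oocyte array, and 1295 of them were called higher. Of these 1735 genes, 1638 were also detected on all 3 fertilized Aph- arrays and 945 on both cumulus arrays, and 338 were detected on no cumulus array. In the other direction 897 genes (9.17%) were detected on the oocyte array and on no SCNT Aph- array, and 820 of them were called lower. On the fertilized Aph- arrays 644 of these 897 were not detected either, and 83 were detected on all 3. Where a gene was undetected on one side, the fold is given as a bound, taken between the mean of the detected arrays and whichever was higher on the other side, the detection limit or the measured value.

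The largest rise was that of Fabp3. This carrier of fatty acids had log2 values of 12.27, 11.75 and 12.04 in the SCNT Aph- embryos (in the order of the labels given above, as are all such triplets) and 4.18 on the oocyte array, where it was not detected. It was at least 81.5-fold higher (a log2 difference of 7.84 with a standard error of 0.50 and adjusted p = 2.73e-06, from limma as are all adjusted p-values here). Wfdc2, a secreted protease inhibitor of epithelia, was at 12.40, 12.06 and 11.95 against 4.30 and at least 88.1-fold higher. Timd2, a receptor for ferritin, was at 11.43, 12.26 and 12.16 against 4.35 and at least 77.6-fold higher. The 12 genes with the largest rises, which include Krt18, Cdx2, Dppa4, Lgals4, a galectin of epithelia, and Ckmt1, the mitochondrial creatine kinase, were all undetected on the oocyte array. Rhox5, an X-linked homeobox gene, was at 11.96, 11.67 and 11.94 against 4.87 and thus at least 72.8-fold higher. Of the 12, Rhox5, Krt18 and Lgals4 were detected on both cumulus arrays, Rhox5 at 8.30 and 8.41 and Lgals4 at 5.68 and 6.06.

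Among the largest falls were genes known from the oocyte. Bcl2l10, a relative of BCL2 that is abundant in eggs, stood at 13.20 on the oocyte array and at 4.58, 4.27 and 4.45 in the clones, where it was not detected. It was at least 278-fold lower (log2 difference -8.76, standard error 0.39, adjusted p = 8.23e-07). Oosp1, a secreted protein of oocytes, went from 12.80 to 4.59, 4.22 and 4.59, which is at least 211-fold lower. H1f8, the oocyte linker histone, went from 12.67 to 4.51, 4.72 and 4.58 and was at least 193-fold lower (adjusted p = 3.69e-07). Ezhip, an inhibitor of the histone methyltransferase EZH2, was at 12.84 in the oocyte and at 4.59 to 4.64 in the clones, at least 217-fold lower. The other 8 of the 12 largest falls were E330034G19Rik, Obox7, Bmp15, Rfpl4, Oog1, Pramel32, Trim61 and Taf9b. Only Bmp15 among the 12 was detected on any SCNT Aph- array, on that of the label blastocyst at 5.58. All 24 genes were chosen with the 3 clone values on 1 side of the oocyte value, and apart from Bmp15 the 3 clone values lay within 1 log2 unit of each other. Several belong to families of near-identical copies (Obox, Oog, Pramel, Rhox), whose probes may pick up more than the named gene.

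**Figure D2:**
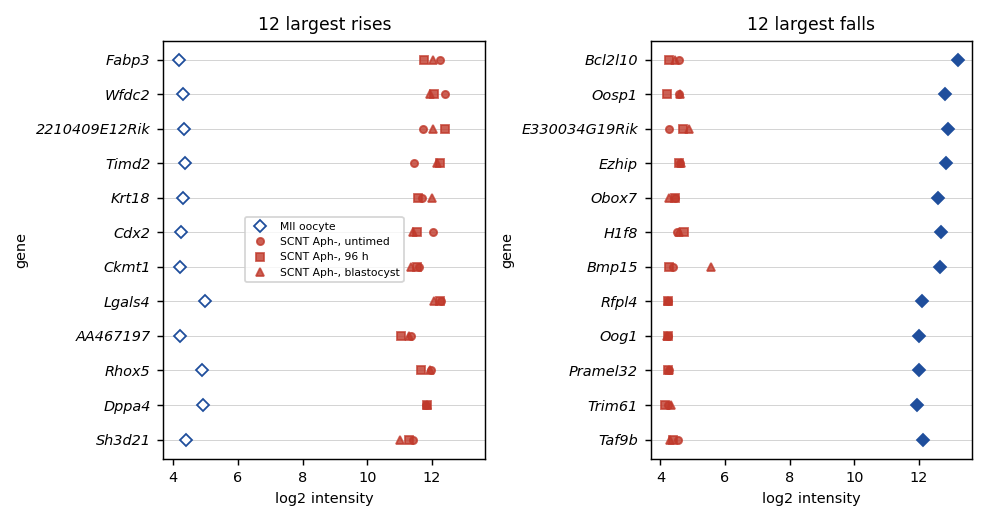
Log2 intensity (x axis) of the 12 genes with the largest rises and the 12 with the largest falls on each array, with the SCNT Aph- arrays in red by label and the oocyte array as a blue diamond, open where the probe was not detected. Red and blue points lie at opposite ends, near 4 to 6 and near 11 to 13, for all 24 genes.

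Promoters of the growing oocyte are known for a short DNA motif, the E-box CACCTG or its complement CAGGTG, which the oocyte factor FIGLA binds ahead of the Zp genes. The RefSeq promoters of 6 oocyte genes that fell are shown from 130 to 11 bases before the start of the gene, with the E-box in capitals (build GRCm38.p6). They were picked because an E-box begins between 100 and 41 bases before the start. That the motif stands there in all 6 thus follows from the choice.
Zp3 (chr5:135979975-135980094, plus strand): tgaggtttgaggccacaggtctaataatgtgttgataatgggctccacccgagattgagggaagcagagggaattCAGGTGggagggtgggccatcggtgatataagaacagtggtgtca
Oosp1 (chr19:11691062-11691181, minus strand): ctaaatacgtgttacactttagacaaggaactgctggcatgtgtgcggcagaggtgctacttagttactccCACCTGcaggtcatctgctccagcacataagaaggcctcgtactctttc
H1f8 (chr6:115944801-115944920, plus strand): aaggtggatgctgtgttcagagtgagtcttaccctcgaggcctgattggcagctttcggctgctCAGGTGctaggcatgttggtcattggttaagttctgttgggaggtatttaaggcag
Rfpl4 (chr7:5116922-5117041, minus strand): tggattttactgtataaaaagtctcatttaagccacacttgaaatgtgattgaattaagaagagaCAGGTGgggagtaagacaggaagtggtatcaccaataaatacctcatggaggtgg
Oog1 (chr12:87602535-87602654, plus strand): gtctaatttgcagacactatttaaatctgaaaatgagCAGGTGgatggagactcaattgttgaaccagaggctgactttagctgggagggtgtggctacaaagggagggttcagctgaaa
Btg4 (chr9:51115871-51115990, plus strand): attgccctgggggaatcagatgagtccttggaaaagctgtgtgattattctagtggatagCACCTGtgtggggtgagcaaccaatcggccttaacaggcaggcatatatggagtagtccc
Counted from the start of the gene, the E-box began at position -55 in Zp3, -59 in Oosp1, -66 in H1f8, -65 in Rfpl4, -93 in Oog1 and -70 in Btg4. Oosp1 held another at -249, outside the stretch shown. Among the 36 genes of the oocyte lists that were called lower, 29 had a promoter in the table, and 10 of these 29 (34.5%) held an E-box that began between 100 and 41 bases before the start. The share was 5 of 17 (29.4%) among members of the same lists that were not called lower, 7.36% among all genes called lower, 5.15% among all called higher and 5.6% among all 27025 genes of the promoter table. Over the whole 300 bases, from 250 before the start to 50 after it, the motif stood in 23.2% of the genes called lower, 21.1% of those called higher and 22.6% of all. The TATA box (TATAAA) was found in 8.99%, 8.55% and 15.7% and the CCAAT box (CCAAT) in 45.0%, 42.3% and 41.1% of the same groups, both strands counted. Among the genes tested the TATA box stood in 10.1% and the CCAAT box in 43.3%, so for the TATA box the share over the whole table was above that of the genes tested. The window was chosen after the positions were seen. A match of letters does not show a bound site.

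Genes of the egg coat and of the subcortical maternal complex, a protein lattice under the egg membrane, fell as a group. Of 16 measured, 12 were called lower and 2 higher, with a median of -3.60 on the log2 scale (-3.81 with undetected genes at their bounds), beside 0.07 over all genes tested (-0.36 with bounds). Zp3, a coat glycoprotein that sperm meet, went from 8.79 to 4.77, 4.98 and 5.19, 14.03-fold lower (adjusted p = 2.9e-06), and was still detected on 1 of the 3 arrays. Zp1 went from 7.41 to 4.40, 4.25 and 4.48 and was at least 5.05-fold lower (adjusted p = 0.00288). Astl, the protease that cleaves ZP2 after fertilization, was at least 37.1-fold lower. Nlrp5 went from 10.83 to 6.96, 7.15 and 5.67, and Padi6 from 10.16 to 7.24, 7.17 and 7.68, so both stayed above the detection limit in the clones. Not every member of the complex fell. Khdc3 rose from 6.53 to 11.95, 12.25 and 12.23, which is 48.8-fold (adjusted p = 1.35e-06), and Ooep was at 10.52, 10.77 and 10.80 against 10.34 (adjusted p = 0.655). Cd9, a membrane protein needed for fusion with sperm that many other cells carry, was at least 7.20-fold higher.

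The regulators and signals of the oocyte went the same way. Of 8 oocyte transcription factors, 5 were called lower and 0 higher. The 3 not called, Sohlh1, Obox6 and Foxr1, were not detected on the oocyte array. Obox1 went from 11.82 to 4.31, 4.26 and 4.44, at least 107-fold lower, and Obox2 and Obox3 fell by at least 30.4-fold and by at least 28-fold. Gdf9, a growth factor through which the oocyte acts on cumulus cells, went from 13.23 to 7.38, 7.21 and 7.58 and was 57.1-fold lower. Its relative Bmp15 went from 12.64 to 4.38, 4.28 and 5.58, and Bmp6 was at least 9.21-fold lower. The clones thus held detectable Gdf9 on all 3 arrays and detectable Bmp15 on 1.

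Most genes of the machinery that stores maternal mRNAs and later removes them fell. Of 13 genes measured 9 were called lower (69.2%) and 3 higher (23.1%), with a median of -4.03 (-3.52 with bounds). Btg4, an adaptor of the CCR4-NOT deadenylase, went from 10.84 to 4.48, 4.17 and 4.30, at least 54.4-fold lower, and Cnot6l, a catalytic subunit of that enzyme, from 11.59 to 4.93, 4.63 and 4.53. That probe of Cnot6l was detected on 1 of the 3 clone arrays only, so its 119-fold difference is taken mostly against values below the detection limit. Cpeb1 and Dazl, which bind stored mRNAs near their tails, were lower by at least 13.9-fold and 28.3-fold, and Pabpn1l by at least 40.2-fold. The 3 that rose were Tut7, which adds uridine to mRNA ends, from 6.58 to 9.18, 9.63 and 9.56, Paip2, a repressor of translation, and Ybx2, a packer of stored mRNAs, from 5.88 to 7.06, 7.94 and 7.02, a call lost in 3 of 14 alternatives. Tut7 and Paip2 were as high on the cumulus arrays, at 9.06 to 9.29 and 9.66 to 10.36, whereas Ybx2 was at 4.31 to 4.45 there.

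Among 12 genes of meiotic arrest and egg activation, 6 were lower and 1 was higher. Mos, the kinase that holds the egg at metaphase II, was at 11.59 in the oocyte and at 4.24, 4.23 and 4.24 in the clones, at least 91.5-fold lower (adjusted p = 2.16e-07). Wee2, an oocyte kinase that restrains cyclin-dependent kinase, and Aurkc, a meiotic Aurora kinase, were lower by at least 7.22-fold and 33.9-fold. Bub1b of the spindle checkpoint fell from 12.35 to 8.17, 7.99 and 8.08. Rec8, a cohesin of meiosis, was the member that rose, from an undetected 4.24 to 5.38, 5.63 and 6.73 (at least 1.18-fold, adjusted p = 0.0187, lost in 3 of 14 alternatives).

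Linker histones, which bind the DNA between nucleosomes, exchange an oocyte form for somatic forms in development. Of 4 measured, only H1f8 was called. The somatic forms H1f2 (7.39, 7.80 and 9.05 against 8.55), H1f5 (4.68, 5.26 and 5.01 against 5.36) and H1f10 (6.62, 5.62 and 5.97 against 6.33) did not pass the test, and the oocyte value lay within or above the range of the clones for each. Among 20 other regulators of chromatin, 10 were lower (50%, beside 21% of all genes) and 4 higher (20%, beside 23.2%). Npm2, the histone chaperone of the egg, and Ezh2, the Polycomb methyltransferase, were lower by at least 3.87-fold and 10.3-fold, and Dnmt1, the maintenance DNA methyltransferase, fell from 10.75 to 8.16, 7.91 and 7.92. Hdac1, a histone deacetylase, and Ehmt2, a methyltransferase of histone H3 lysine 9, rose from undetected levels to 8.02, 8.12 and 7.86 and to 8.39, 8.27 and 7.94. Ehmt1, the partner of EHMT2, moved the other way, from 7.98 to 5.86, 4.67 and 5.20, and was detected on 2 of the 3 arrays. Dnmt3l rose from 9.25 to 11.91, 11.61 and 11.76, while the de novo methyltransferase Dnmt3b was at 11.22, 11.14 and 11.30 against 10.48 (adjusted p = 0.152).

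Regulators of the trophectoderm rose in the clones. Of 19 regulators 11 were called higher and 2 lower, with a median of 2.15 (1.21 with bounds). Cdx2, the homeobox factor that sets up the trophectoderm, had log2 values of 12.03, 11.53 and 11.42 against 4.24 in the oocyte and was at least 63.5-fold higher (adjusted p = 2.55e-05). Tead4, which acts upstream of it, was at 11.14, 10.98 and 10.79 against 4.29 and at least 39.3-fold higher. Eomes was at 9.11, 8.22 and 7.81 against 4.17 and at least 6.53-fold higher. Gata3 was at 8.57, 8.15 and 8.32 against 5.67 and at least 6.39-fold higher (adjusted p = 0.012), a call that the deposited log2 values did not give (adjusted p = 0.0642). Klf5 and Gata2, further factors of the lineage, were higher by at least 19.8-fold and 12.2-fold. Tfap2c, whose mRNA the egg already holds, was at 12.29, 12.11 and 12.24 against 12.70 (adjusted p = 0.638), with another probe at least 2-fold the other way, and Grhl1 and Arid3a were the members that fell. In cumulus cells 4 of the 19 were detected on both arrays, Klf6 at 7.28 and 8.46, Id2 at 6.89 and 7.80, Ets2, and Ovol2 only through a probe other than the one read.

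The epithelium that these factors govern showed in keratins and tight junctions, while the core of adhesion did not pass the test. Of 22 genes of keratins, junctions and polarity 10 were called higher and 0 lower, with a median of 0.79 (0.22 with bounds). Krt8 rose from 5.96 to 12.64, 12.44 and 12.46, 94.0-fold, and its partner Krt18 from 4.31 to 11.69, 11.59 and 11.997, at least 67.8-fold. Of the claudins, which seal tight junctions, Cldn6 and Cldn7 were higher by at least 14.1-fold and 8.71-fold, and Cldn4 by 9.93-fold. Cdh1, which codes for E-cadherin, stood at 9.90, 10.26 and 10.22 against 10.65 (adjusted p = 0.655), and the catenins Ctnna1 and Ctnnb1 at 12.30 to 12.65 against 12.83 and 11.08 to 11.39 against 12.16. None of the 3 was called, and in each the oocyte value was above all clone values. Of 12 genes of the cavity, 3 were higher (25%, beside 23.2% of all genes) and 1 lower (8.33%, beside 21%). Aqp3, a water and glycerol channel, was at 9.02, 8.28 and 9.09 against 4.32 and at least 8.72-fold higher, whereas Atp1b1, a subunit of the sodium pump, was at 10.16, 9.54 and 9.99 against 9.74 (adjusted p = 0.962). Cftr, a chloride channel, was at least 7.75-fold lower. The median of the cavity list, 0.22, changed sign to -0.18 with scaling to the 75th percentile.

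Among pluripotency genes more rose than fell, and others did not pass the test. Of 21 measured 9 were called higher (42.9%, beside 23.2% of all genes) and 2 lower (9.52%, beside 21%). Their median was 0.85 (0.30 with bounds). Dppa4 was at 11.83, 11.86 and 11.85 against 4.93, at least 72.1-fold higher (adjusted p = 5.16e-07). Nanog, a homeobox factor of the inner cell mass, was at 10.25, 10.38 and 10.30 against 4.34, at least 24.9-fold higher (log2 difference 5.97, standard error 1.23, adjusted p = 0.00294). The standard error of Nanog, taken from all 13 arrays, was much larger than the spread of its 3 values here. Dppa5a rose from 7.78 to 13.47, 13.28 and 13.37, 48.5-fold, and L1td1 at least 30.6-fold. Pou5f1 was at 6.10, 5.92 and 6.36 against 6.05 (log2 difference 0.08, standard error 0.34, adjusted p = 0.918), with the oocyte value between those of the clones. That oocyte value lay near the detection limit of its array, 5.67, so this probe may miss a change. Sall4 (11.61 to 11.69 against 12.30) and Esrrb (adjusted p = 0.0981) did not pass the test either. Tcl1, a coactivator of AKT, fell from 12.69 to 6.38, 7.09 and 7.77, 48.9-fold, and Lin28a, which blocks let-7 processing, from 9.62 to 6.74, 6.83 and 6.5001. On both cumulus arrays only Nr5a2, Klf4 and Klf2 of the 21 were detected.

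Genes of the primitive endoderm went in both directions. Of 13 genes 3 were called higher and 2 lower, shares of 23.1% and 15.4% beside 23.2% and 21% of all genes, and the median was -0.48 (0.08 with bounds). Gata6, an early factor of the lineage, rose from 7.75 to 9.89, 10.19 and 10.39 (adjusted p = 0.0046), and Apoe and Sparc, a lipid carrier and a matrix protein, were higher by at least 3.66-fold and 2.12-fold. Lamb1, a chain of the basement membrane protein laminin, fell from 9.46 to 5.63, 4.67 and 5.05. Sox17, a factor of the committed primitive endoderm, was not detected on any of the 4 arrays, at 4.21, 4.21 and 4.25 against 5.32, and its call as lower was lost in 7 of 14 alternatives. On the 3 fertilized Aph- arrays Sox17 was detected at 7.05 to 8.04.

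Genes of the 2-cell stage set the 3 SCNT Aph- arrays apart from each other. Of 20 measured 6 were called higher (30%, beside 23.2% of all genes) and 0 lower (beside 21%). Their median difference from the oocyte was 0.19 on the first array, 2.87 on that labelled 96 h and 1.18 on that labelled blastocyst, beside 0.04 to 0.05 over all genes tested. Zscan4c, a marker of the 2-cell stage, was detected only on the array labelled 96 h, at 8.50, and lay at 4.36 and 4.29 on the others and at 4.29 in the oocyte. Tmem92 had the same pattern, at 7.73 against 4.61 and 4.36, and Zfp352, Tdpoz2 and Tdpoz1 were highest on that array and lowest on the first. Because of this spread Zscan4c (adjusted p = 0.434) and Zfp352 (adjusted p = 0.163) did not pass the test. Pramel7, an inhibitor of DNA methylation in the embryo, was even at 10.30, 10.28 and 10.65 against 4.25, at least 26.7-fold higher. On the fertilized Aph- arrays Zscan4c was at 4.20 to 4.54. The 3 labels hold 1 array each, so label, pool and array cannot be told apart.

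**Figure D3:**
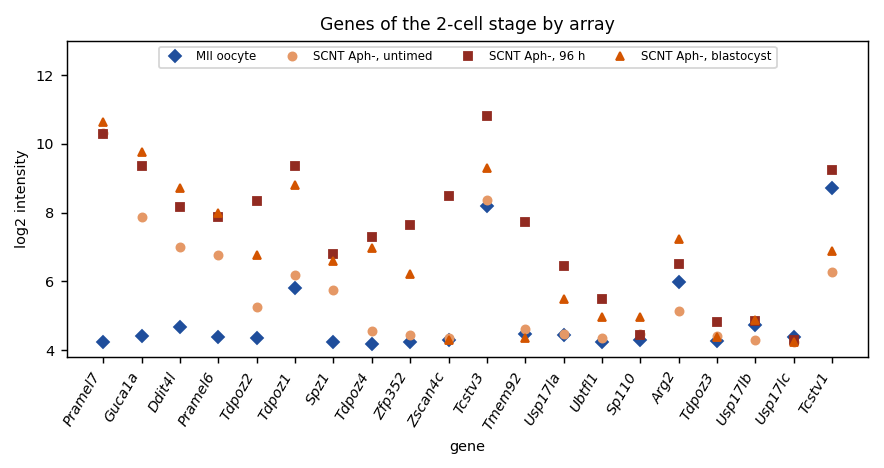
Log2 intensity of the 20 genes of the 2-cell list on the 3 SCNT Aph- arrays, by label, and on the oocyte array (blue diamonds), ordered by mean difference. The array labelled 96 h lies above the other 2 for Zscan4c, Tmem92, Zfp352 and Tcstv1, while for Pramel7 the 3 arrays lie close together.

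Beyond this list a few genes were picked for the width of their range over the 3 clone pools. The widest of all, Gm428, was at 4.55, 9.59 and 5.48 against 9.25 in the oocyte and was not called (adjusted p = 0.17). The next were taken among called genes. BC051665 was at 10.36, 8.30 and 5.93 against 4.26 in the oocyte, and Gm13043 at 7.41, 9.96 and 10.14 against 4.42. Tbc1d20, an activator of Rab GTPases, was at 5.52, 4.27 and 7.19 against 9.20, and Poc1b, a protein of centrioles, at 7.07, 4.32 and 6.15 against 10.05. Taken singly, the 3 arrays held 2911 to 2934 genes at least 2-fold above the oocyte and 2544 to 2579 at least 2-fold below it.

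The broadest rises were in the machinery of growth. Of 58 cytosolic ribosomal protein genes 45 were called higher (77.6%) and 1 lower, with a median of 3.33 (3.17 with bounds). Rps26 rose from 6.96 to 12.44, 12.65 and 12.72, 49.9-fold, and Rpl19 from 6.46 to 11.14, 11.44 and 11.54, 30.1-fold. Rpl27 was the gene that fell, from 8.85 to 7.39, 7.95 and 8.07 (2.06-fold, adjusted p = 0.0363), a call lost in 7 of 14 alternatives. Of 31 genes of ribosome assembly in the nucleolus 23 were higher and 0 lower (median 2.51, or 2.13 with bounds). Ubtf, a factor of RNA polymerase I, came from an undetected 4.39 to 9.73, 9.68 and 9.67, at least 16.2-fold, and Ncl and Fbl, which code for nucleolin and fibrillarin, were higher by at least 11.2-fold and 14.6-fold. Ribosomal protein mRNAs are short and many have pseudogenes, so a probe may also read copies.

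The same held for the mitochondrion and for protein turnover. Of 68 genes of oxidative phosphorylation 58 were higher (85.3%) and 1 lower, with a median of 2.68 (2.20 with bounds). Atp5g1, a subunit of the ATP synthase, came from an undetected 5.23 to 10.77, 11.06 and 11.25, at least 40.9-fold, and Uqcr10 of complex III rose from 7.62 to 12.18, 12.48 and 12.27, 25.7-fold. The gene that fell, Cox6a2, is the muscle form of a subunit of cytochrome oxidase, and was detected on none of the 4 arrays, and its call was lost in 6 of 14 alternatives. Mitochondrial ribosomal proteins counted 47 higher and 2 lower of 72 (median 2.17, or 1.87 with bounds). Of 31 proteasome genes 22 were higher and 1 lower (median 2.60, or 2.46 with bounds), Psmd13 from 7.99 to 12.88, 12.88 and 12.85, while Psmd9, an assembly chaperone, fell from 8.48 to 4.95, 4.92 and 4.93. Of 18 lysosome genes 13 were higher and 0 lower, among them Hexa and Ctsc. These lists stood high in cumulus cells too: 51 of the 58 ribosomal protein genes, 63 of the 68 genes of oxidative phosphorylation and 28 of the 31 proteasome genes were detected on both cumulus arrays.

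Among the lists of 8 or more genes, 5 had no member called lower, namely keratins, 2-cell genes, nucleolus, lysosome and stress, and in limma none of their members was at least 2-fold lower at an unadjusted p under 0.05 either. Of the 3 blood markers measured none was called, and 1 was lower by this unadjusted rule. The oocyte transcription factors had no member called higher and none at the unadjusted p.

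**Figure D4:**
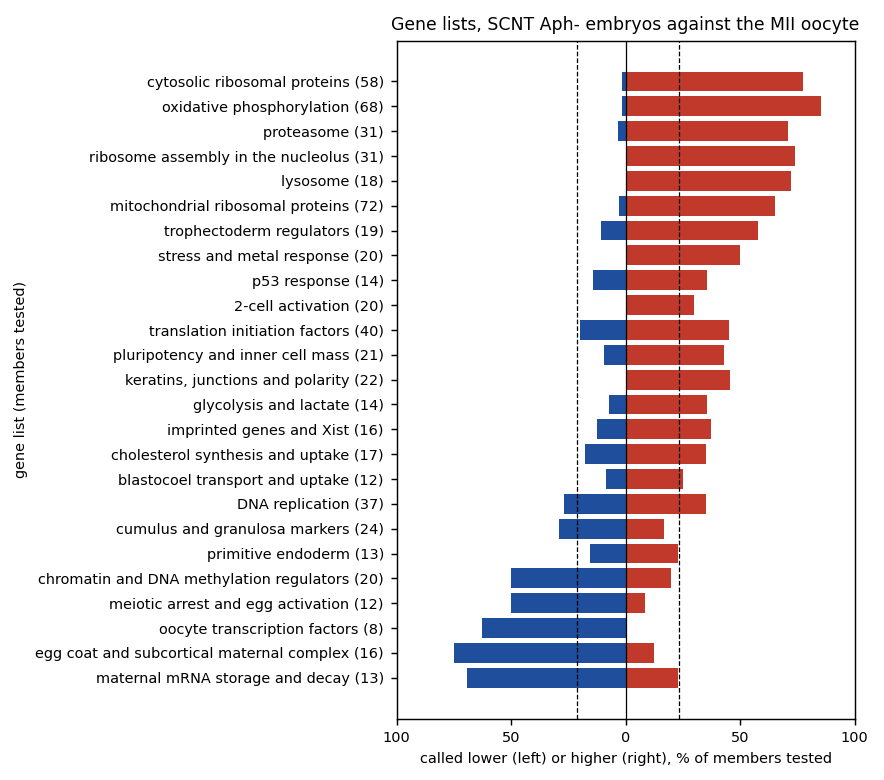
Share of the measured members of each gene list of 8 or more genes called lower (left, blue) or higher (right, red) in SCNT Aph- embryos against the MII oocyte, in percent, with the dashed lines at the shares over all genes tested, 21% and 23.2%. The lists are ordered by median difference, from ribosomal proteins at the top to maternal mRNA storage and decay at the bottom.

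Translation initiation factors and DNA replication genes had members called in both directions. Of 40 initiation factors 18 were higher (45%, beside 23.2% of all genes) and 8 lower (20%, beside 21%), with a median of 0.88. Eif2b5 came from an undetected 4.88 to 9.94, 10.21 and 10.18. In contrast Eif4e3, a variant of the cap-binding protein, went from 11.78 to 4.53, 5.22 and 4.37, at least 104-fold lower, and the oocyte variant Eif4e1b was at least 9.49-fold lower. Of 37 DNA replication genes 13 were higher (35.1%, beside 23.2% of all genes) and 10 lower (27%, beside 21%). Their median of 0.15 fell below 0 with scaling to the 75th percentile (-0.54) and with the mean of all probes. The clamp loaders Rfc2 and Rfc4 rose, Rfc2 from 7.10 to 11.04, 11.09 and 10.76, and the flap nuclease Fen1 from 6.07 to 9.81, 9.34 and 9.51. Pcna, the clamp itself, fell from 9.01 to 6.36, 5.66 and 5.83, 8.35-fold (adjusted p = 0.000453), and the origin factor Orc5 fell from 10.91 to 8.74, 8.92 and 8.76, a call lost in 3 of 14 alternatives. Another, Orc4, was called lower, at 5.22, 4.82 and 5.52 against 7.22, but its difference of -2.03 shrank to -0.11 (adjusted p = 0.854) with scaling to the 75th percentile and to -0.93 with the mean of all probes.

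In glucose metabolism the carrier changed more than most enzymes. Of 14 genes 5 were higher (35.7%, beside 23.2% of all genes) and 1 lower (7.14%, beside 21%). The median was 0.44 (1.09 with bounds). Slc2a3, a glucose transporter of the trophectoderm, rose from 5.72 to 12.22, 11.86 and 12.09, 80.9-fold (adjusted p = 2.13e-06), while Slc2a1 was at 8.47, 9.18 and 8.79 against 8.24 (adjusted p = 0.414). Tpi1, Gapdh and Aldoa of glycolysis were 10.2-fold, 9.77-fold and 9.75-fold higher. Bpgm, which makes bisphosphoglycerate, went from 11.35 to 4.18, 4.25 and 4.23, at least 77.2-fold lower. Cholesterol genes were divided, with 6 of 17 higher (35.3%, beside 23.2% of all genes) and 3 lower (17.6%, beside 21%). Lss, Ebp, Mvd and Fdps, enzymes of synthesis, rose, and Insig1, which restrains that synthesis, fell from 9.42 to 5.99, 6.51 and 7.16.

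Stress genes and targets of p53 rose more often than they fell. Of 20 genes of the stress and metal response 10 were higher and 0 lower, with a median of 1.68 (1.26 with bounds). Mt1, a metallothionein, rose from 8.34 to 13.67, 13.67 and 13.56, 39.1-fold on a scale whose top it reached, and Mt2 at least 12.4-fold. Atf4 was not detected on any of the 4 arrays, and the reticulum chaperone Hspa5 was at 7.39, 7.24 and 7.37 against 6.07 (adjusted p = 0.122). Of 14 p53 targets 5 were higher (35.7%, beside 23.2% of all genes) and 2 lower (14.3%, beside 21%). Cdkn1a, the inhibitor p21, rose from 5.37 to 8.78, 9.47 and 9.22, at least 11.2-fold, and Bbc3, the death gene PUMA, from an undetected 5.06 to 8.39, 8.89 and 9.19. Mdm2, which codes for the ligase that degrades p53, fell 2.09-fold, and Gadd45a was at least 4.68-fold lower. Mt1 ranked 1 or 2 among all probes on each of the 6 embryo arrays, clones and fertilized Aph- alike, so a difference between them could not be read. Cdkn1a was at 7.76 to 8.44 on the fertilized Aph- arrays and was not called between the 2 kinds of embryo.

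Imprinted genes, expressed from the copy of 1 parent, went in both directions. Of 16 measured, Xist included, 6 were higher (37.5%, beside 23.2% of all genes) and 2 lower (12.5%, beside 21%). Xist, the RNA that silences an X chromosome in female cells, was undetected in the oocyte (4.88) and stood at 8.90, 9.26 and 9.50 in the clones, at least 11.7-fold higher (adjusted p = 3.98e-05), and at 7.85 to 8.62 in fertilized embryos. Cdkn1c, a cell cycle inhibitor expressed from the maternal copy, was at 8.30, 10.41 and 10.58 against 5.52 and at least 17-fold higher, with the first array lowest by a wide margin. Mest and Grb10 fell, Mest from 9.59 to 5.44, 5.74 and 6.31 and Grb10 from 9.85 to 5.96, 5.51 and 5.56. Igf2, a growth factor (adjusted p = 0.145), and Phlda2, which restrains placental growth (7.91, 7.04 and 7.06 against 7.95), did not pass the test.

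Markers of cumulus cells were seen on the oocyte array. Of 24 such markers 9 were detected there and 21 on both cumulus arrays, while 18 were detected on no SCNT Aph- array. Their mean log2 level was 5.75 on the oocyte array, 5.24 to 5.36 in the clones and 8.21 to 8.54 in cumulus cells. Timp1, an inhibitor of matrix proteases, was at 8.54 in the oocyte, 6.07 to 6.65 in the clones and 12.41 to 12.69 in cumulus cells. Ptx3, Sfrp2 and Inhba were detected on the oocyte array and on no SCNT Aph- array, and each was among the 7 markers called lower, the call of Inhba being lost in 5 of 14 alternatives. Another 4 markers were called higher in the clones. S100a10 rose from 6.56 to 9.85, 9.84 and 10.18, and Gja1, a gap junction protein, from 9.82 to 11.39, 11.94 and 11.89. Npr2 and Amhr2 were higher by at least 7.38-fold and 2.08-fold. The call of Amhr2 was lost in 5 of 14 alternatives, and that of Gja1 with scaling to the 75th percentile. Inha and Has2 were detected neither on the oocyte array nor in the clones, and the steroid enzyme Cyp11a1 was at 6.29 on the oocyte array. The part of cumulus RNA in the falls was not tested. Leaving out genes that cumulus cells hold at a higher level than the oocyte kept 1986 of the 2058 lower genes. This cannot decide the question, because the filter uses the same oocyte array. Genes that fell are high on that array and so seldom meet the filter. Of the sperm markers Spam1 was at 8.88 on the oocyte array and undetected in the clones, and of the blood markers Hba-a1 was at 5.13 to 6.10 in the clones against 4.24 (adjusted p = 0.281).

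Where the clones stood apart from fertilized embryos was asked in the same fit, in which the oocyte array cancels out. The contrast of SCNT Aph- with fertilized Aph- embryos, 3 arrays each, called 16 genes higher (0.163% of those tested) and 39 lower (0.398%). The deposited log2 values gave 5 higher and 32 lower, and scaling to the 75th percentile 49 higher and 71 lower. For comparison, the 3 arrays of each kind did not overlap in 13.9% of the genes with the clones higher and in 13.5% with the clones lower. Of the 39 genes lower in clones, 19 were detected on no SCNT Aph- array, and 18 were detected on the oocyte array. Of the 39, 17 were also called lower than the oocyte and 1, Mrps35, was called higher. Of the 16 genes higher in clones 15 were called higher than the oocyte. Over all genes tested 21% were called lower and 23.2% higher than the oocyte. Both contrasts use the same 3 SCNT Aph- arrays, so these counts follow in part from the choice of the genes.

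Xlr4a showed the widest gap. This X-linked gene of the lymphocyte-regulated family was at 11.34 in the oocyte and at 11.36 to 11.47 in fertilized embryos, but at 6.19, 5.62 and 6.35 in the clones. The clones were 41.2-fold below fertilized embryos (log2 difference -5.36, standard error 0.30, adjusted p = 0.000125) and lower than the oocyte with an adjusted p of 1.03e-05. In cumulus cells Xlr4a was at 7.24 and 7.41, nearer to the clones. Its neighbour copy Xlr4c had the same pattern, at 9.27 in the oocyte, 8.31 to 8.76 in fertilized embryos and 4.31, 4.24 and 5.31 in the clones, where it was detected on 1 of the 3 arrays. It was 15.2-fold below fertilized embryos (adjusted p = 0.00114), a fold that rests in part on values below the detection limit. The Xlr genes are near-identical copies, so their probes may read each other. Magea2 and Magea5, germ line genes of the X chromosome, were undetected in the clones and lower than in fertilized embryos by at least 4.95-fold and 4.37-fold. In all, 10 of the 39 genes lower in clones (25.6%) and 0 of the 16 higher lay on chromosome X, beside 3.33% of the 9782 genes tested whose chromosome RefSeq gives. This count was made after the genes were seen. The other X-linked genes were Gm14685, Fmr1nb, F8a, Tktl1, Stard8 and Xlr5a. Xist was at 8.90 to 9.50 in the clones and 7.85 to 8.62 in fertilized embryos, groups that did not overlap, and was not called. The part of X inactivation, of the sex of the embryos or of their differing strains in these values was not tested.

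Genes of the primitive endoderm were among those lower in clones than in fertilized embryos. Sox17 was at 4.21, 4.21 and 4.25 in the clones, undetected, and at 7.05 to 8.04 in fertilized embryos, at least 5.14-fold lower (log2 difference -3.22, standard error 0.26, adjusted p = 0.000864). Pdgfra, a receptor that marks the lineage, was at 5.36, 6.61 and 5.28 against 7.76 to 8.29 in fertilized embryos, 5.14-fold lower (adjusted p = 0.0211). Gata6, which comes earlier, was at 9.89 to 10.39 in the clones and 9.88 to 10.15 in fertilized embryos and was not called. Aqp8, a water channel, was at 4.98, 4.87 and 4.43 against 7.35 to 7.43, 6.14-fold lower (adjusted p = 0.000688), and was detected on 1 of the 3 clone arrays. Ctsll3, a cathepsin of the placental family, and Asz1, a germ cell gene, were undetected in the clones and at 6.40 to 9.13 and 7.08 to 7.67 in fertilized embryos.

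The genes higher in clones had a different make-up. Mgst2, a membrane glutathione transferase, was at 9.45, 9.51 and 9.95 against 5.49 to 7.21 in fertilized embryos, 10.1-fold higher (log2 difference 3.34, standard error 0.44, adjusted p = 0.0159), with 10.58 and 10.89 in cumulus cells and 6.75 in the oocyte. Mlkl, the effector of necroptosis, was at 6.74, 8.06 and 7.31 against 4.51 to 5.77, with 6.93 and 7.09 in cumulus cells. Ly6e, a membrane protein of placental fusion, Anxa8, an annexin, Ephx1, an epoxide hydrolase, and Sbsn, a secreted epidermal protein, were 4.49-fold, 3.77-fold, 3.53-fold and 3.50-fold higher. With the kind of label as a block, since both groups hold the same 3 kinds, 3 genes were higher and 21 lower, and the calls of Mlkl (adjusted p = 0.0573), Ly6e (0.102), Anxa8 (0.0598) and Ephx1 (0.0974) were lost. The probes of Anxa8 and Sbsn were each detected on 1 of the 3 fertilized arrays. Anxa8 was near the floor in cumulus cells, at 4.20 and 4.34. Both cumulus arrays lay above all 3 fertilized arrays for 7 of the 16 genes (43.8%), for 4 of the 39 lower genes (10.3%) and for 29.5% of all genes tested. They lay below all 3 for 7 of the 16, for 34 of the 39 (87.2%) and for 34.9% of all. The 16 and the 39 were picked by these same fertilized values. Their shares thus follow in part from the choice, all genes are no fair baseline for them, and no conclusion is drawn. Nanog, Cdx2, Krt18, Dppa4 and Pou5f1 were not called between the 2 kinds of embryo, which does not show that they are equal. With limma the number of higher genes was 0 without the clone array labelled 96 h, without that labelled blastocyst or without the fertilized array labelled 96 h, and the number of lower genes was then 12, 14 and 12. At an unadjusted p under 0.05 and 2-fold, 142, 143 and 145 genes were higher in these 3 cases.

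**Figure D5:**
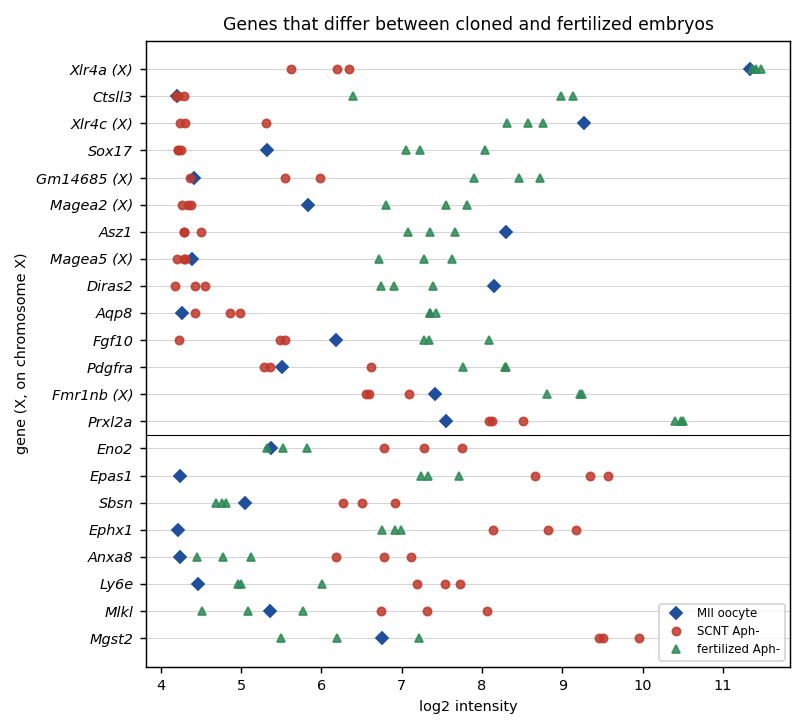
Log2 intensity (x axis) of the 14 genes with the largest deficit (above the line) and the 8 with the largest excess (below it) in SCNT Aph- against fertilized Aph- embryos, among called genes, on each embryo array and on the oocyte array. The red points of the clones lie left of the green triangles in the upper genes, and for Xlr4a the oocyte lies with the fertilized embryos near 11.4.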

How the data were processed

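RNA of pooled mouse embryos, oocytes and cumulus cells was measured on 13 Illumina BeadChips with 25697 probes. The deposited intensity values are mean bead intensities that the authors exported from BeadStudio 3.2 without normalization, each with a detection p-value against negative controls, deposited in 798 steps. The authors' deposited log2 values, made with lumi and RMA per the submitters' processing notes (versions not given in the sources used here), were background-adjusted and quantile normalized, with a median of 1.35 on every array, and served as an alternative. The amplification kit differs between the labels and the study's text.

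Groups came from the sample labels. Intensities were background-corrected and quantile normalized with neqc of limma 3.58.1 (R 4.3.3, offset 16). Probes without a gene symbol (1719) or without detection at p under 0.01 on any array were dropped, and each gene was read from its brightest probe, which left 9787 of 16593 genes. One limma fit with 6 groups (7 residual degrees of freedom) gave moderated tests with Benjamini-Hochberg adjustment, and a call needed an adjusted p under 0.05 and 2-fold. The genes and the 29 gene lists were chosen with earlier results of these data known. Named were the 12 largest rises and falls among genes called with all 3 arrays on one side, the 4 largest called changes each way and set members of each list, Pou5f1, Nanog and Actb, and the 6 largest differences each way from fertilized embryos, 213 in all. Other genes, among them the most variable ones and further genes that differ from fertilized embryos, were chosen after their values were seen. The number of arrays, above all the single oocyte array, limits the precision.

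On data simulated for the comparison with the oocyte over 9787 genes, 3, 23, 44 and 45 of 50 genes changed 2-, 4-, 8- and 16-fold were called, with 6 false calls. For the comparison with fertilized embryos 16, 39, 48 and 50 of 50 were called, with 11 false calls. Far fewer genes were changed there than were called in the data against the oocyte, and more than were called against fertilized embryos. The noise was normal without a detection floor. These figures therefore do not carry over directly to the real comparisons. Alternatives changed the background correction, scaling, detection filter, probe rule, arrays in the fit, variance model and call rule, added the sample type as a block, or left out arrays. Promoters from 250 bases before to 50 after the start, and chromosomes, were taken from RefSeq (GRCm38.p6); not every gene had an entry. No column of authors' fold changes was used.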

Additional observations from a re-analysis of the deposited data

Results flagged for a closer look

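The change from the oocyte to the embryo differed between cloned and fertilized embryos in 14 of the genes followed by name, by a limma test of the difference, which is the contrast of SCNT Aph- with fertilized Aph- embryos since both share the oocyte array. Clones were lower in 8. For Xlr4a the difference was -5.36 on the log2 scale, and for its copy Xlr4c -3.93. The other X-linked genes were Gm14685 at -3.06 and Magea2 at -3.06. Ctsll3, a cathepsin, differed by -3.94 and the water channel Aqp8 by -2.62. The primitive endoderm genes Sox17 and Pdgfra differed by -3.22 and -2.36.

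Clones were higher in 6. The difference was 3.34 for Mgst2, 2.25 for Mlkl, 2.17 for Ly6e, 1.91 for Anxa8, 1.82 for Ephx1 and 1.81 for Sbsn. Of the 14, Xlr4a, Xlr4c, Sox17, Magea2 and Aqp8 kept the call under every alternative run, and the others lost it in 3 (Gm14685) to 10 (Mlkl, Ly6e) of them.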

How the results depend on the processing

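Counts against the oocyte stayed within 1.5 times of 2272 higher and 2058 lower in every alternative but 1, between 1714 and 2693 higher and between 1653 and 2472 lower. The exception, chosen after seeing the data, left out genes: without genes higher in cumulus cells, 754 genes (10.9% of those left) were higher. Its filter uses the same oocyte array, so this count follows in part from the choice. Of 188 called genes followed by name against the oocyte, 154 kept the call in every setting, and none changed direction. Of those described above, the call was lost in 5 settings for Inhba and Amhr2 and in 3 for Ybx2, Rec8 and Orc5. It was lost in 2 for Magea2, Mdm2, Orc4 and Sparc and in 1 for Actb, Arid3a, Gata3, Gja1, Sbsn and Sfrp2. Rpl27, Sox17 and Cox6a2 lost it as given above. The oocyte array could not be left out.

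The contrast with fertilized embryos, 16 higher and 39 lower, moved more. It gave 5 higher with the deposited log2 values, 8 with a trended robust variance, 10 higher and 22 lower without background correction, 49 and 71 with scaling to the 75th percentile, 62 and 102 with only the compared arrays in the fit, and 65 and 99 without the Aph+ arrays. Leaving out single arrays gave 0 to 21 higher and 12 to 38 lower. The cause was not tested. All labels carry the same replicate number, so the numbers pair nothing. With the sample type as a block instead, 3 genes were higher and 21 lower than in fertilized embryos, and 2227 higher and 2029 lower than in the oocyte.

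Signal near the floor limits what can be said: 1752 genes were detected on none of the 4 arrays.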
